A study of Mus musculus with 22 samples.

Results

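The comparison described here sets arsenic-exposed against control mouse embryos at gestational day 8, hour 15 (GD8:15), the earliest of the stages sampled. It rests on the 8 arrays whose titles name that stage, 4 labelled treated and 4 labelled control, out of 22 arrays in the whole series. All embryos, controls included, were Folr2-/-, that is, they lacked the gene of a folate receptor. The pregnant dams, also Folr2-/-, received an intraperitoneal injection of sodium arsenate in water at 9.6 mg arsenic per kg on GD7:12 and again on GD8:12, or water for injection at 10 µL per g. Embryos were taken 3 h after the second injection, the anterior neural tube was dissected, and its RNA was amplified and hybridised to one-colour CodeLink arrays. The design text speaks of at least 4 dams at each stage, without saying whether this is per arm, and the labels do not tie arrays to dams, so the p-values measure only the spread between these samples, which may in part be technical. They do not give the age of the dams or the sex of the embryos, and they name no wild-type embryos.

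Arsenic that enters a cell binds protein thiols, consumes glutathione and causes oxidative stress and misfolding of proteins. Cells answer such stress through several known routes. In the integrated stress response, kinases phosphorylate the initiation factor eIF2, general protein synthesis slows, and the mRNA of the transcription factor ATF4 is translated more; ATF4 then acts on genes of amino acid supply and of further stress factors. NRF2, held back by KEAP1 in unstressed cells, acts on genes of glutathione and heme breakdown, and heat shock factor acts on chaperone genes. The anterior neural tube at this stage is closing its folds and is divided into forebrain, midbrain and hindbrain territories by homeobox genes.

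No probe passed an adjusted p of 0.05 in the limma fit across all 22 arrays (0% of 7830 tested probes). The lowest adjusted p was 0.0514, shared by Chac1, Stc2 and a probe without a gene symbol. At an unadjusted p under 0.05, 571 probes differed (7.29%), where 391.5 would be expected by chance. Of the 571, 313 were higher under arsenic (4%) and 258 lower (3.3%). With the 8 arrays fitted alone 352 probes passed that level, and with the number series of the titles as a block 314. Both counts are below 391.5, so the excess depends on the fit. The groups did not overlap in 301 probes (3.84%): the 4 arsenic values lay wholly above the 4 control values in 150 (1.92%) and wholly below them in 151 (1.93%). The difference was positive in 3925 probes (50.1%). The results are therefore given as differences with their standard errors, and "higher" or "lower" refers to a difference of means and not to a call. Among the 15 higher genes of lowest p were 3 of the ATF4 target list (Chac1, 2.47-fold higher, Stc2, 1.98-fold, and Jdp2, 4.38-fold), Atf4 itself at 2.42-fold, Atf5 at 1.68-fold, the amino acid transporter gene Slc1a4 at 2.13-fold and the heme oxygenase gene Hmox1 at 3.43-fold. Among the lower genes, Pgam2 was 1.93-fold lower, Sertad1 1.77-fold and the midbrain-hindbrain homeobox gene En1 2.99-fold.

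**Figure D1:**
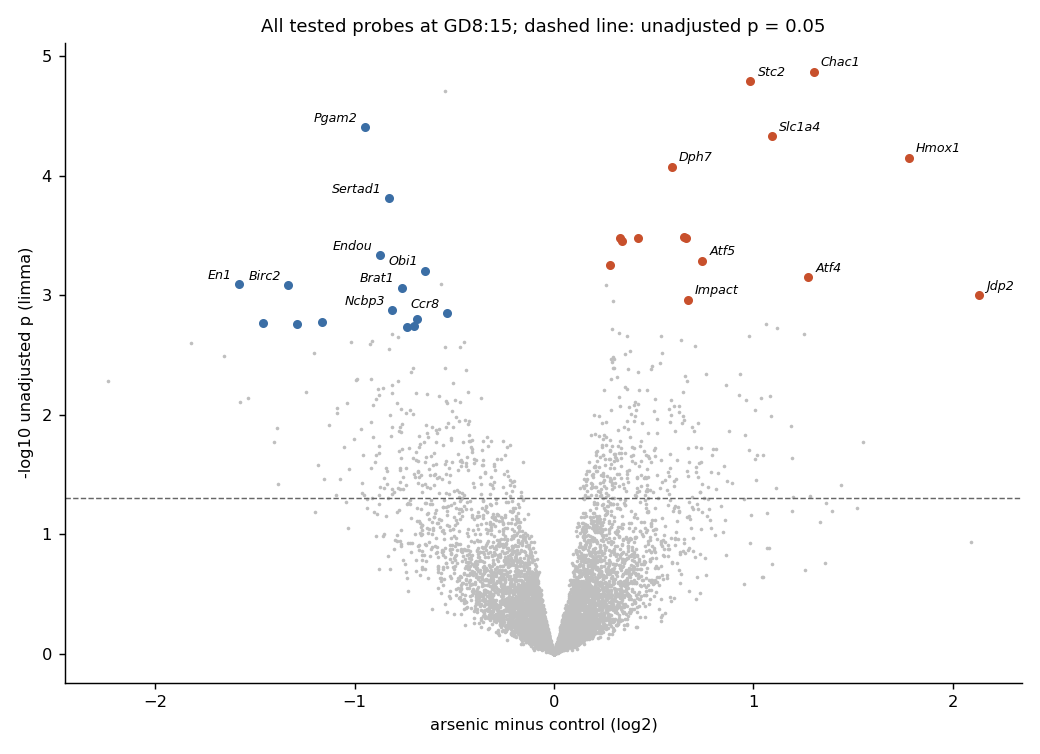
Difference between arsenic and control at GD8:15 (x axis, log2) against the unadjusted limma p (y axis, as -log10) for each tested probe; the 15 genes of lowest p in each direction are red where higher and blue where lower under arsenic, and the dashed line marks an unadjusted p of 0.05. Chac1 and Stc2 stand highest, at an adjusted p of 0.0514, and Jdp2 lies farthest to the right among the red genes, at 2.13 on the log2 scale.

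All values are log2 intensities after quantile normalisation; the median tested probe stood at 7.86 in the controls and probes with a mean below 7.20 were not tested. The 8 arrays had median intensities of 128 to 291 before normalisation and 16 to 50 spots without a measurement. Pairs of control arrays correlated at a median r of 0.949 over the tested probes and pairs of arsenic arrays at 0.894. Arsenic array 3 had the highest median intensity and the lowest median correlation with the others (0.886). Arsenic array 4 had 3.49% of its spots in stretches of consecutive probe numbers with low signal (low runs). The numbers in the titles fall into series whose meaning is not stated: the 4 arsenic arrays and control arrays 2 and 4 share 1 series, and control arrays 1 and 3 each belong to another. Of the 11 neural tube markers listed, 9 were tested, and in the controls Six3 stood at 11.68, En1 at 11.56, Nes at 9.39 and Sox2 at 9.34, while Pax6, Zic1 and Cdh2 lay between 7.10 and 7.41, near the floor of the array. Folr2 read between 6.67 and 7.15 on all 8 arrays and did not pass the filter; since every embryo was Folr2-/-, this checks no difference between the groups.

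Of the 5 sex-linked genes tested, only Xist and Eif2s3y had groups that did not overlap. Xist, the RNA that silences an X chromosome in female cells, read 7.10, 7.02, 7.06 and 7.08 on control arrays 1 to 4 and 9.06, 8.70, 7.86 and 8.08 on arsenic arrays 1 to 4. The Y-linked gene Eif2s3y read 7.67, 7.66, 7.79 and 7.67 in the controls and 7.19, 7.20, 7.11 and 7.30 under arsenic. Both pairs of groups were separate, with an exact two-sided permutation p of 0.0286 each, the smallest that 4 against 4 arrays can give, and 0.0715 after adjustment over the 5 sex-linked genes. The other Y-linked genes overlapped between the groups, with differences of -0.11 for Kdm5d, -0.13 for Uty and -0.19 for Sry. For Xist and Eif2s3y at this stage, arsenic and the sex of the embryos cannot be told apart. Over 250 tested genes of the X chromosome the median difference was 0.03 and 56.8% were positive, against 49.6% of 6903 autosomal genes. None of the 30 leading genes lies on a sex chromosome. Whether the sex of the embryos has a part in the differences of these or other genes was not tested.

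The factors listed for the integrated stress response were mostly higher under arsenic. The list is broader than that route and also holds Nfe2l1, Xbp1, Ern1 and Atf6. Of 13 members tested, 10 had a positive difference. Higher at an unadjusted p under 0.05 were 4 of them, Nfe2l1 included, against 3.99% of all 7187 tested genes. None was lower at that level (3.4% of all genes were). Their median difference was 0.12, against 0.00 for all genes. Atf4, the central factor of the route, read 11.04, 12.71, 12.61 and 11.98 on control arrays 1 to 4 and 12.90, 13.91, 13.13 and 13.49 on arsenic arrays 1 to 4. All 4 arsenic values exceeded all control values, although the lowest of them lay only just above the highest control. The difference was 1.27 ± 0.31 (SE, n = 4 per group; limma adjusted p = 0.295). Control array 1 was the lowest of the controls, and with spots in low runs left out the difference was 0.93.

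Atf5, a bZIP factor whose mRNA is also translated more when eIF2 is phosphorylated, stood between 8.06 and 8.31 in the controls and at 8.52, 8.97, 9.32 and 8.90 under arsenic. Its groups were separate, and the difference was 0.74 ± 0.18 (adjusted p = 0.269). Atf3, a stress-induced repressor and target of ATF4, read 7.60 to 7.71 in the controls and 8.92, 7.01, 9.10 and 8.73 under arsenic. It was thus high on 3 arsenic arrays and below every control on arsenic array 2, with a difference of 0.77 ± 0.35 (adjusted p = 0.646). Leaving out 1 array at a time the difference ranged from 0.56 to 1.25, the highest value without that array. Nfe2l1, a bZIP factor known for its action on proteasome genes, was higher by 0.25 ± 0.08 with separate groups, at an intensity near the floor (controls 6.94 to 7.18). Ddit3, which encodes CHOP, read 7.64 to 7.82 in the controls and 8.54, 8.23, 8.64 and 7.50 under arsenic, a difference of 0.48 ± 0.27 with overlap on arsenic array 4.

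Regulators that act back on the route differed in size. Ppp1r15a, which directs the phosphatase that reverses eIF2 phosphorylation, differed by 0.40, and without 1 arsenic array at a time this ranged from 0.12 to 0.65. Impact, an inhibitor of the activation of the eIF2 kinase GCN2, read 8.82, 8.67, 8.68 and 8.47 in the controls and 9.29, 8.89, 9.65 and 9.48 under arsenic. All its arsenic values lay above the controls, with a difference of 0.67 ± 0.17 (adjusted p = 0.34). The eIF2 kinase genes showed no common direction: the difference was 0.12 for Eif2ak4 (GCN2), -0.33 for Eif2ak3 (PERK) and -0.20 for Eif2ak1 (HRI). Eif2ak1 had separate groups but stood at 0.08 under the scaling of the authors, where the median of all probes was 0.21.

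**Figure D2:**
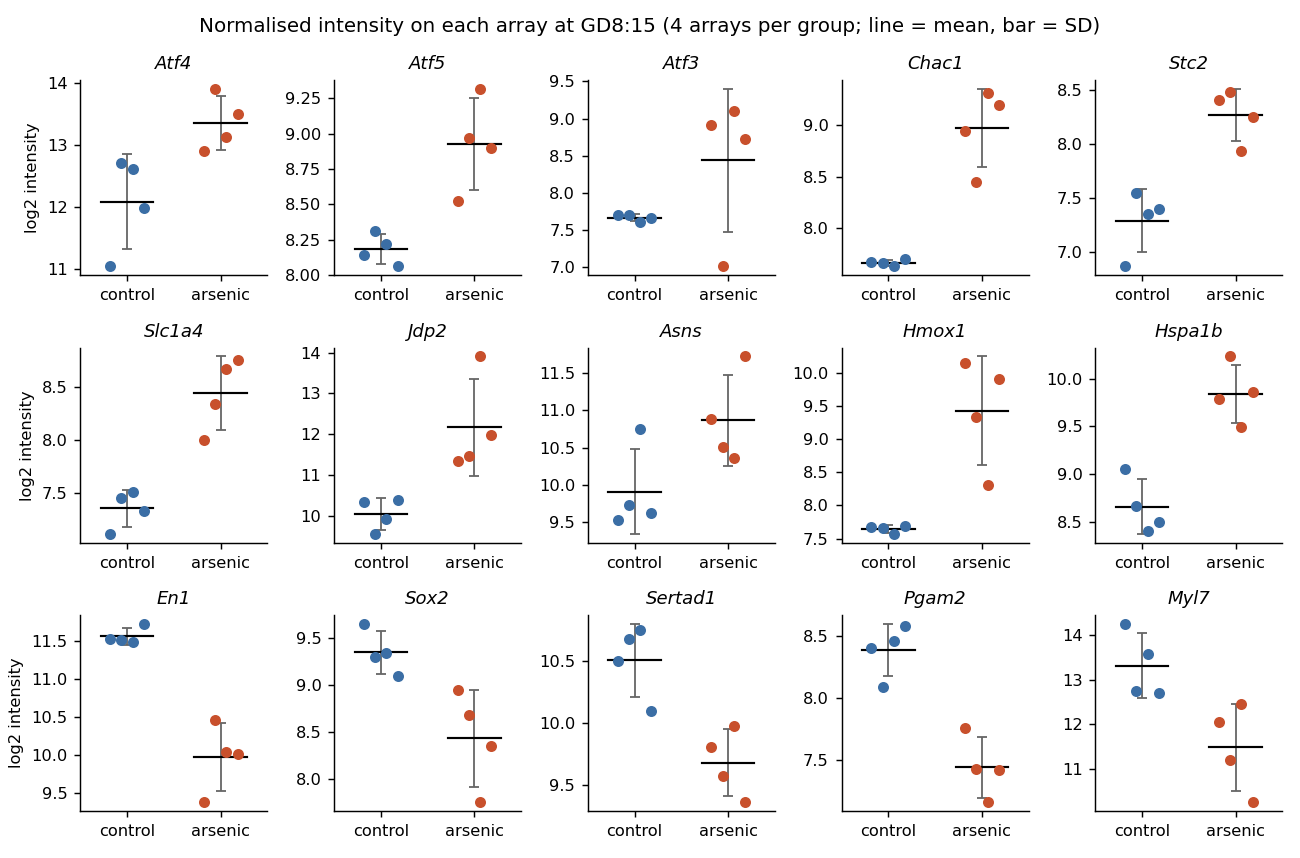
Log2 intensity on each of the 8 arrays for 15 genes, one panel per gene with its own y axis; blue points are the 4 control arrays and red points the 4 arsenic arrays, the black line is the group mean and the bar the SD. Chac1 stands between 8.45 and 9.31 under arsenic against 7.63 to 7.70 in the controls, Atf3 has 1 arsenic array below every control, and Myl7 and En1 are lower on every arsenic array.

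The target genes of ATF4 gave the largest median of any list examined, 0.42, against 0.00 for all genes. Of 17 on the array, 15 passed the filter; all 15 had a positive difference, as had 49.9% of all genes, and 7 were higher at an unadjusted p under 0.05 (3.99% of all genes) and none lower. The groups were wholly separate in 4 of them, against 1.93% of all genes. This list, like the others, was chosen with earlier results of these data known, so its counts and median describe the members and are no test. Without arsenic array 4, which had the highest mean over the list, 11 of 15 were positive and the median was 0.33. Chac1, an enzyme that breaks down glutathione, read 7.68, 7.66, 7.63 and 7.70 on control arrays 1 to 4 and 8.94, 8.45, 9.31 and 9.19 on arsenic arrays 1 to 4. The controls lay close together, a little below the median probe, and every arsenic array was higher; the difference was 1.30 ± 0.22 (adjusted p = 0.0514). Stc2, which encodes the secreted glycoprotein stanniocalcin 2, read 6.86, 7.54, 7.35 and 7.39 in the controls and 8.41, 8.48, 7.93 and 8.26 under arsenic. Its groups were separate too, with a difference of 0.98 ± 0.17 (adjusted p = 0.0514).

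Jdp2, a bZIP repressor that pairs with AP-1 factors, had the largest difference of the named genes. It read 10.33, 9.54, 9.91 and 10.39 in the controls and 11.33, 11.46, 13.91 and 11.98 under arsenic, so that arsenic array 3 stood well above the other arsenic arrays. The difference was 2.13 ± 0.54 (adjusted p = 0.326), and leaving out 1 array at a time it ranged from 1.57 to 2.42. Asns, which makes asparagine and is a much used readout of ATF4, read 9.53, 9.73, 10.75 and 9.62 in the controls and 10.88, 10.51, 10.36 and 11.73 under arsenic. Control array 3 lay within the arsenic values, and the difference was 0.96 ± 0.32 (adjusted p = 0.518). Eif4ebp1, a repressor of cap-dependent translation, was higher by 1.12 ± 0.51 and overlapped the controls on arsenic array 3. Vldlr, a lipoprotein receptor, was higher by 0.42 ± 0.18 with separate groups near the floor of the array.

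Mthfd2, the mitochondrial folate enzyme and also a member of the one-carbon list, read 12.49, 12.06, 12.19 and 9.35 in the controls and 12.44, 13.43, 12.75 and 13.65 under arsenic. The value of control array 4 lies in a low run. The difference was 1.55 ± 0.59 (adjusted p = 0.599) with that value and 0.82 without it. The other 8 tested members lay between 0.01 and 0.51, with Nars highest, and none passed an unadjusted p of 0.05.

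Slc1a4, a carrier of alanine, serine and other neutral amino acids, stood apart from the other transporters. It read 7.11, 7.46, 7.51 and 7.33 in the controls and 8.00, 8.34, 8.68 and 8.76 under arsenic. The groups were separate, with a difference of 1.09 ± 0.21 (adjusted p = 0.0733). Slc7a3, a carrier of cationic amino acids, was the only other transporter with an unadjusted p under 0.05, at 0.24 ± 0.11. In the list as a whole 6 of 14 tested members were positive and the median was -0.03. Left as scaled by the authors, the arrays gave a positive difference in all 14, at a median of 0.23. The same scaling gave 6306 of 7830 probes a positive difference, at a median of 0.21. The list thus lay close to all probes there. In the main fit Slc7a11, the cystine carrier, differed by 0.02. Slc1a5 and Slc3a2 were at 0.31 and 0.23, with overlapping groups. The cytosolic aminoacyl-tRNA synthetases had 7 of 12 positive and a median of 0.04, none past an unadjusted p of 0.05; Nars stood at 0.51 ± 0.37.

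The promoters of the leading genes and of the stress lists were searched for the site that ATF4 binds together with a C/EBP partner, TGATGCAA, on both strands. Each promoter in the RefSeq table (GRCm38.p6) runs from 250 bases before the start of the gene to 50 after it. The letters occur in 294 of 32851 promoters (0.895%), in 1.03% of genes and in 0.835% of the genes tested on the arrays. Of the 15 leading higher genes 13 had a promoter in the table, and 3 of these held the site: Chac1, Jdp2 and Slc1a4. None of the 12 leading lower genes found in the table held it. Of the ATF4 targets 3 of 12 held it, Vldlr being the third, and of the stress response factors 1 of 12, Atf3. The amino acid transporters, whose median difference was -0.03, had the highest share of the lists searched, 3 of 10 (Slc1a4, Slc7a11 and Slc7a7). The longer pattern TGATGNAAN, which contains every match of the shorter one followed by any base, occurs in 2.99% of the tested genes; it also matched Asns among the ATF4 targets (4 of 12) and Sh3bp5l among the leading higher genes (4 of 13). The 100 bases around each match are given 5′ to 3′ on the strand of the gene, with the matched letters in capitals (TTGCATCA is the same site read on the other strand):
Chac1, chr2:119351003-119351102, plus strand: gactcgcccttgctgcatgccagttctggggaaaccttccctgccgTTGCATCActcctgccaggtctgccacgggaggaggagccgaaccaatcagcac
Jdp2, chr12:85599326-85599425, plus strand: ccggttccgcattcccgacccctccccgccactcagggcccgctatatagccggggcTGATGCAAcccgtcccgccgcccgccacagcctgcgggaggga
Slc1a4, chr11:20332704-20332803, minus strand: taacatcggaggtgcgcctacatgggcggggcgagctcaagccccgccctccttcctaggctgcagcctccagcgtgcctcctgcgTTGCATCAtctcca
Vldlr, chr19:27216774-27216873, plus strand: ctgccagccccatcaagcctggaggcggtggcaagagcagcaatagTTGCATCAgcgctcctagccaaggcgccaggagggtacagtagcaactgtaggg
Atf3, chr1:191183390-191183489, minus strand: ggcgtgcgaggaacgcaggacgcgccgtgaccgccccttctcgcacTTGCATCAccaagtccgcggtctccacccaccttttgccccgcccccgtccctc
Asns, chr6:7693200-7693299, minus strand: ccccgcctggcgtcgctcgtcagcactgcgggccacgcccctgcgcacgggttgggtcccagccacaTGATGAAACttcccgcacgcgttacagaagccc

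The match ended 185 bases before the start of Chac1, 192 before Vldlr, 102 before Atf3, 25 before Jdp2 and 14 before Asns, and it spanned the start of Slc1a4. A match alone did not go with a difference: Slc7a11, Slc7a7 and Tars also hold TGATGCAA, and their differences were 0.02, -0.07 and 0.14. Atf4, Atf5 and Stc2 were not among the genes with a match in this window. The match is a description of the letters and not a measurement of binding. Sites of other factors were searched in the same promoters. The heat shock factor site occurred in 4 of 13 heat shock genes and 0.505% of tested genes. The NRF2 site occurred in 6 of 21 NRF2 and antioxidant genes and 16.4% of tested genes. The metal response element occurred in 2 of the 13 leading higher genes and 28.5% of tested genes, and the cyclic AMP response element in 0 and 3.34%.

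The oxidative stress route was carried by few genes. Hmox1, which breaks down heme and is a known target of NRF2, read 7.68, 7.65, 7.57 and 7.69 on control arrays 1 to 4 and 10.15, 9.33, 8.31 and 9.91 on arsenic arrays 1 to 4. The controls were almost equal, every arsenic array was higher, and arsenic array 3 was the least so; the difference was 1.78 ± 0.35 (adjusted p = 0.0927). Leaving out 1 array at a time it ranged from 1.54 to 2.19, the highest value without arsenic array 3. Over the alternative settings its limma adjusted p ranged from 0.00678, without that array, to 0.644, and in 3 of them it was called. Sqstm1, the autophagy receptor p62, was higher by 1.09 ± 0.38 with control array 3 at 10.20 inside the arsenic range of 9.75 to 11.07. The 2 subunits of the enzyme that limits glutathione synthesis, Gclm and Gclc, differed by 0.44 ± 0.19 and 0.41 ± 0.29, and both were high on arsenic arrays 1, 2 and 4 and low on arsenic array 3. Over the list of NRF2 and antioxidant genes 17 of 25 were positive, 3 were higher at an unadjusted p under 0.05 (3.99% of all genes were) and none lower, and the median was 0.07. With median centring 11 were positive and the median was -0.01, while 3116 of all 7830 probes were positive with a median of -0.04. Nqo1, Txnrd1, Gsr and Slc7a11, further textbook targets of NRF2, stood at -0.01, -0.04, -0.02 and 0.02, near zero and with a sign that depended on the settings.

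Of the genes that handle arsenic itself, 2 of 12 were higher at an unadjusted p under 0.05 (3.99% of all genes were) and none lower (3.4%). Gsto1, a glutathione transferase of the omega class that reduces methylated arsenic, was higher by 0.80 ± 0.31, with control array 3 at 9.11 inside the arsenic range of 8.72 to 9.85. Gstm2 was separate by a smaller amount, 0.29 ± 0.12. Aqp3, a channel that passes arsenite, was at 0.26 ± 0.12, and As3mt, the methyltransferase of arsenic, at -0.22; As3mt was chosen for its role and after its value was seen. The list had 7 of 12 positive and a median of 0.03, and the list of glutathione synthesis and use 9 of 16 and 0.05. In the latter 3 were higher at an unadjusted p under 0.05 and none lower.

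Among the inducible heat shock genes 13 of 18 were positive, with a median of 0.20. With median centring 9 were positive and the median was 0.0073, against a median of -0.04 for all probes. Hspa1b, an inducible HSP70, read 9.05, 8.67, 8.40 and 8.50 in the controls and 9.79, 10.23, 9.49 and 9.86 under arsenic, and its near-identical neighbour Hspa1a read 7.30 to 7.39 and 7.86, 8.84, 7.60 and 9.21. Both had separate groups, and the differences were 1.19 ± 0.43 and 1.04 ± 0.34; since the 2 genes are nearly the same in sequence, their probes may not tell them apart. Chordc1, a cochaperone of HSP90 named after its value was seen, was the third member higher at an unadjusted p under 0.05, at 0.71. Of the small heat shock genes Hspb1 was at -0.43 ± 0.14 and Cryab at -0.24 ± 0.10, the only 2 members lower at that level, while Hspb8, named after its value was seen, was at 0.49 ± 0.33. Over all genes 3.99% were higher and 3.4% lower at that level. Of the metal response genes Mt2, a metallothionein, was higher by 0.34 ± 0.14, high on arsenic arrays 1, 2 and 4 and within the controls on arsenic array 3.

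Endoplasmic reticulum chaperones lay mostly below zero, with 6 of 23 positive and a median of -0.09. Hspa5, the main HSP70 of that compartment and a standard readout of the unfolded protein response, read 9.51, 9.05, 9.96 and 9.07 in the controls and 9.21, 8.42, 8.19 and 8.42 under arsenic. Arsenic array 1 overlapped the controls, and the difference was -0.84 ± 0.37 (adjusted p = 0.641). Sdf2l1 was at -0.77 ± 0.43 and Calr at -0.52 ± 0.31, and Hsp90b1 at 0.52. Leaving out 1 array at a time, Sdf2l1 ranged from -0.94 to -0.48, Calr from -0.68 to -0.16 and Hsp90b1 from 0.39 to 0.72. Under the scaling of the authors, which moved the median of all probes to 0.21, the median of this list was 0.16.

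Immediate early genes had 15 of 27 positive and a median of 0.05; 5 were higher at an unadjusted p under 0.05 (Jdp2, Jund, Atf3, Klf10 and Fos; 3.99% of all genes) and 1 lower (Egr2; 3.4% of all genes). Jund, an AP-1 subunit, read 11.43, 12.53, 11.80 and 11.69 in the controls and 12.55, 14.31, 13.11 and 12.49 under arsenic, a difference of 1.25 ± 0.35 (adjusted p = 0.399) in which only arsenic array 4 lay below a control value. Fos was at 0.28 ± 0.11, with control values of 7.31 to 7.60, below the median probe. Of the p53 targets and apoptosis genes 16 of 22 were positive with a median of 0.04, and none passed an unadjusted p of 0.05 in either direction; Cdkn1a, the inhibitor p21, stood at 0.41 ± 0.24, high on arsenic arrays 1, 2 and 4. In DNA repair Ogg1, the glycosylase that removes oxidised guanine, read 7.44, 7.70, 7.81 and 7.62 in the controls and 8.20, 8.56, 7.76 and 8.70 under arsenic. Only arsenic array 3 overlapped, and the difference was 0.66 ± 0.15 (adjusted p = 0.214); leaving out 1 array at a time it ranged from 0.54 to 0.86, the highest value without that array. Xrcc1, a scaffold of the same repair pathway, was at -0.81 ± 0.38, and the list of 28 had 15 positive and a median of 0.02.

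**Figure D3:**
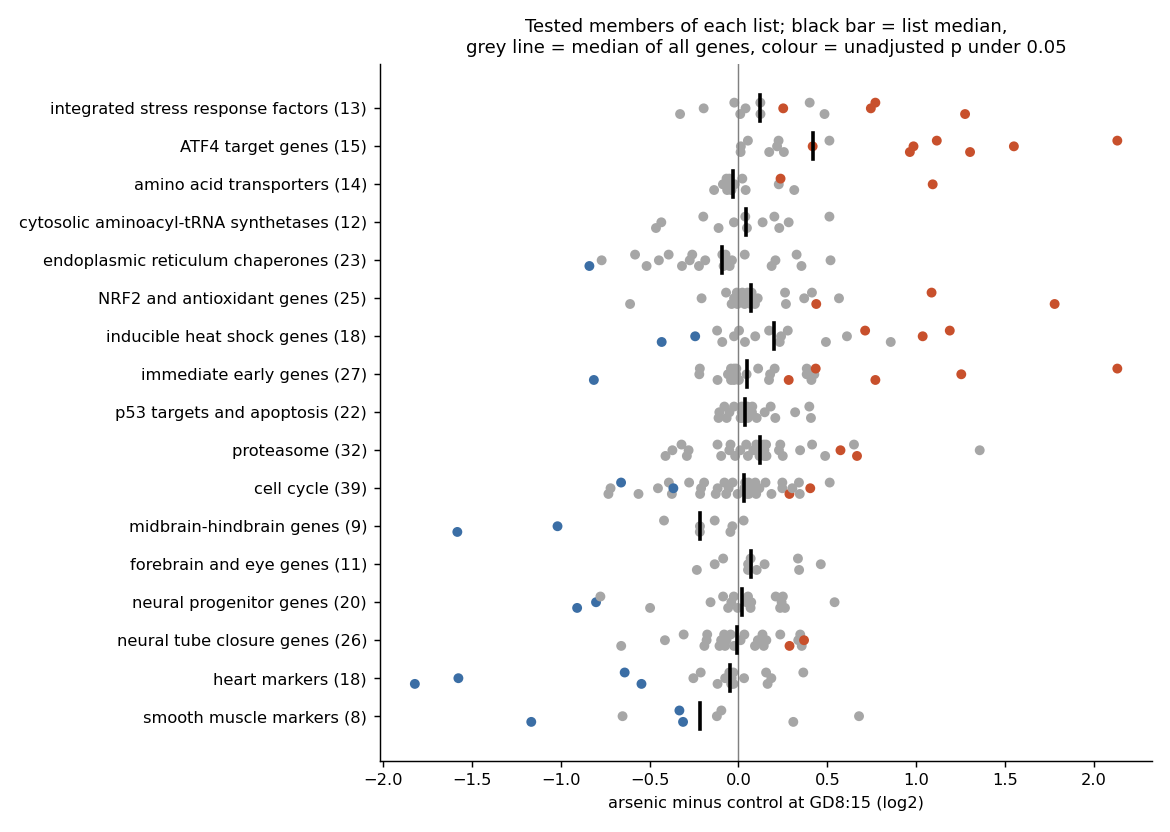
Difference between arsenic and control (log2) for each tested member of 17 gene lists, with the number of members in brackets; the black bar is the list's median, the grey line the median of all genes, and red and blue points are members with an unadjusted p under 0.05. All 15 ATF4 targets lie right of zero with a median of 0.42, while most other lists straddle the line.

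The remaining genes of lowest p that were higher belonged to no single list. Dph7, which acts in the making of diphthamide on elongation factor 2, read 8.50 to 8.58 in the controls and 9.32, 9.06, 9.06 and 9.09 under arsenic, a separate and narrow difference of 0.59 ± 0.12 (adjusted p = 0.0942). C5ar1, the receptor of complement C5a, read 7.98 to 8.23 and 8.77 to 8.88, a difference of 0.65 ± 0.15 (adjusted p = 0.214). The repressor Bcl6 (0.33), the glycosyltransferase Gcnt1 (0.42), Sh3bp5l (0.34) and the D-amino acid oxidase gene Dao (0.28) had separate groups but means near the floor of the array. Of the 15 higher genes 14 were separate, and 9 had control means below 8. 

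The genes of lowest p that were lower were brighter. Pgam2, the muscle form of phosphoglycerate mutase, read 8.41, 8.09, 8.46 and 8.58 in the controls and 7.76, 7.42, 7.16 and 7.42 under arsenic. The groups were separate, with a difference of -0.95 ± 0.18 (adjusted p = 0.0733). Sertad1, a cofactor of E2F and CDK4, read 10.50, 10.68, 10.75 and 10.09 and then 9.81, 9.57, 9.98 and 9.36, a difference of -0.83 ± 0.17 (adjusted p = 0.151). Birc2, an inhibitor of apoptosis, was at -1.33 ± 0.33, Mettl3, the methyltransferase of adenosines in mRNA, at -1.29 ± 0.35, and Bcl9l, a coactivator of beta-catenin, at -1.46 ± 0.40; in Bcl9l control array 1 stood highest at 12.23. The others, Endou, Obi1, Brat1, Ncbp3, Ccr8, Thbs4, Pros1 and Fem1c, lay between -0.54 and -0.87. All 15 had separate groups, as their low p partly requires.

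Patterning genes of the neural tube are given by territory. En1, a homeobox gene of that boundary, read 11.52, 11.51, 11.49 and 11.72 in the controls and 9.39, 10.47, 10.05 and 10.02 under arsenic. Every arsenic array was lower, and the difference was -1.58 ± 0.39 (adjusted p = 0.295). Mab21l2, expressed in midbrain and eye, read 8.78, 8.81, 8.16 and 8.93 and then 7.52, 8.07, 7.50 and 7.52, also separate, at -1.02 ± 0.29 (adjusted p = 0.399). En2, the paralogue of En1, overlapped at -0.42 ± 0.32, and Lmx1b stood at -0.22. With 1 array left out at a time En2 ranged from -0.57 to -0.21 and Lmx1b from -0.29 to -0.09. Of the 9 tested members 1 was positive and the median was -0.22, with 2 lower at an unadjusted p under 0.05 (3.4% of all genes were). Under the scaling of the authors that median was 0.06, against 0.21 for all probes. En1 kept its sign in every alternative run and ranged from -1.78 to -1.34. Wnt1, a signal of the boundary, stood at -0.22 and Otx2, a homeobox gene of forebrain and midbrain, at -0.13. Both were named after their values were seen. With 1 array left out at a time Wnt1 ranged from -0.34 to -0.013 and Otx2 from -0.34 to -0.042. Otx2 and Lmx1b were positive under the scaling of the authors.

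Forebrain genes had 8 of 11 positive with a median of 0.07, and none passed an unadjusted p of 0.05; Dlx1 was at 0.46 ± 0.23 with arsenic array 3 alone above the controls, at 9.34. Among neural progenitor genes Sox2 read 9.64, 9.29, 9.34 and 9.10 in the controls and 8.95, 8.68, 7.76 and 8.35 under arsenic. It was lower on every arsenic array, by 0.91 ± 0.31 on the log2 scale (adjusted p = 0.526), whereas the list had 10 of 20 positive and a median of 0.02. Dll3, a Notch ligand, was at -0.80 ± 0.37 and Sox11 at -0.78 ± 0.39; a second probe of Sox11 stood at -0.02. In the dorsal and ventral list Msx1, a dorsal homeobox gene, was higher by 0.81 ± 0.32, Gli1, a readout of Hedgehog signalling, by 0.75 ± 0.36 and the floor plate factor Foxa2 by 0.27 ± 0.13, 3 of 20 members at an unadjusted p under 0.05, against 3.99% of all genes. Gli1 rested on arsenic arrays 1 and 3. Genes whose loss prevents closure of the neural tube had 13 of 26 positive and a median of -0.01; Dvl3, of the planar polarity pathway, was higher by 0.37 ± 0.16 with separate groups and Marcksl1 by 0.29 ± 0.08.

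Hindbrain and Hox genes had 5 of 15 positive and a median of -0.06, with Egr2, a marker of hindbrain segments, at -0.81 ± 0.37. Of the retinoic acid pathway, 3 of 10 members were higher at an unadjusted p under 0.05 (3.99% of all genes were), and the median was 0.00. Aldh1a2, the enzyme that makes retinoic acid in the embryo, read 9.56, 8.56, 8.68 and 6.89 in the controls and 9.13, 9.39, 9.98 and 9.50 under arsenic. Control array 4 lies in a low run, and without such values the difference of 1.08 ± 0.36 became 0.57. Rara, a receptor of retinoic acid, was at 1.05 ± 0.42. Cell cycle genes had 20 of 39 positive and a median of 0.03; Mki67 was at -0.66 ± 0.31 and Bub1 at -0.37 ± 0.17, E2f1 at 0.40 ± 0.17 and Mcm2 at 0.29 ± 0.13. Glycolysis genes had 9 of 19 positive, with Gapdh at 0.73 ± 0.34, where control array 1 stood at 13.47 and the other controls at 15.18 to 15.38. Proteasome genes had 22 of 32 positive and a median of 0.12, with Psma7 at 0.67 ± 0.28 and Psmc1 at 0.57 ± 0.24. Folate and one-carbon genes had 15 of 22 positive and a median of 0.05; Folr1, the other folate receptor, was at 0.60 ± 0.30 with arsenic array 3 the highest at 10.80. Hypoxia targets (8 of 14 positive, median 0.01), cholesterol synthesis (7 of 12, 0.02) and early neuron genes (6 of 13, -0.05) had no member past an unadjusted p of 0.05.

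Among markers of the heart, which lies next to the anterior neural tube in the embryo, a few bright genes were lower in the arsenic samples. Myl7, the atrial myosin light chain, read 14.23, 12.74, 13.56 and 12.71 in the controls and 12.04, 11.20, 12.45 and 10.27 under arsenic. Actc1, cardiac actin, read 13.78, 13.08, 13.25 and 13.04 and then 12.53, 11.45, 11.58 and 11.29. Both were among the brightest probes and were lower on every arsenic array, by 1.82 ± 0.52 and 1.57 ± 0.53 on the log2 scale (adjusted p = 0.399 and 0.518). Nkx2-5 and Gata6, transcription factors of heart progenitors, were at -0.64 ± 0.23 and -0.55 ± 0.17. Of 26 listed markers on the array 18 were tested, 13 of them negative, and 4 were lower at an unadjusted p under 0.05 (3.4% of all genes were) and none higher; the median was -0.05. With the arrays left as the authors scaled them, 11 of 17 were positive and the median was 0.14. Of all probes 6306 of 7830 were positive under that scaling, with a median of 0.21. The summed level of the 18 ranged from 14.60 to 15.40 in the controls and from 13.84 to 14.60 under arsenic (log2), so that the groups met at one value. Tnnt2, Tnni3, Tnnc1, Myh6, Myh7, Nppb, Hand2 and Csrp3 did not pass the filter on dim probes. In a dissected tissue, fewer cells of a type and less RNA per cell cannot be told apart.

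Smooth muscle markers overlap in part with early heart. Cnn1, calponin, read 10.29, 9.82, 9.69 and 9.51 in the controls and 8.81, 8.59, 8.99 and 8.25 under arsenic, separate and lower by 1.17 ± 0.32 on the log2 scale (adjusted p = 0.399). Myocd and Acta2 were separate too, at -0.33 ± 0.13 and -0.31 ± 0.14, so that 3 of 8 were lower at an unadjusted p under 0.05, against 3.4% of all genes, and none higher. The summed level of the 8 overlapped fully, 11.82 to 12.60 in the controls and 11.95 to 12.61 under arsenic. Among mesoderm and head mesenchyme markers 4 of 19 were positive and the median was -0.10. The scaling of the authors gave 14 positive and a median of 0.10, against a median of 0.21 for all probes. Pdgfra was at -1.09 ± 0.51 and Prrx2 at -1.04 ± 0.50, both lowest on arsenic arrays 1 and 3. Their summed level was 13.04 to 13.27 in the controls and 12.68 to 13.10 under arsenic. The summed level of the neural tube markers was also lower, 12.89 to 13.25 against 12.33 to 13.07, En1 being one of its brightest genes.

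Blood genes varied between arrays within the arsenic group. Hba-x, an embryonic globin, read 7.00 to 7.44 in the controls and 7.42, 8.89, 7.76 and 8.93 under arsenic (1.06 ± 0.29, adjusted p = 0.399), and Hba-a1 reached 14.28 and 14.68 on arsenic arrays 2 and 3 against 12.01 to 12.85 in the controls. Of the 11 blood markers tested 6 were positive and 5 negative, between -0.37 and 1.06, with a median of 0.01. Their summed level, to which bright genes add most, was 13.05 to 13.61 in the controls and 12.84 to 15.05 under arsenic. Endothelial markers (10 of 15 positive, median 0.08), endoderm and yolk sac markers (8 of 14, 0.01), surface ectoderm markers (8 of 14, 0.07) and neural crest markers (7 of 15, -0.01) showed overlapping sums in the 2 groups. Whether the makeup of the dissected tissue has a part in the differences of other genes was not tested.

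**Figure D4:**
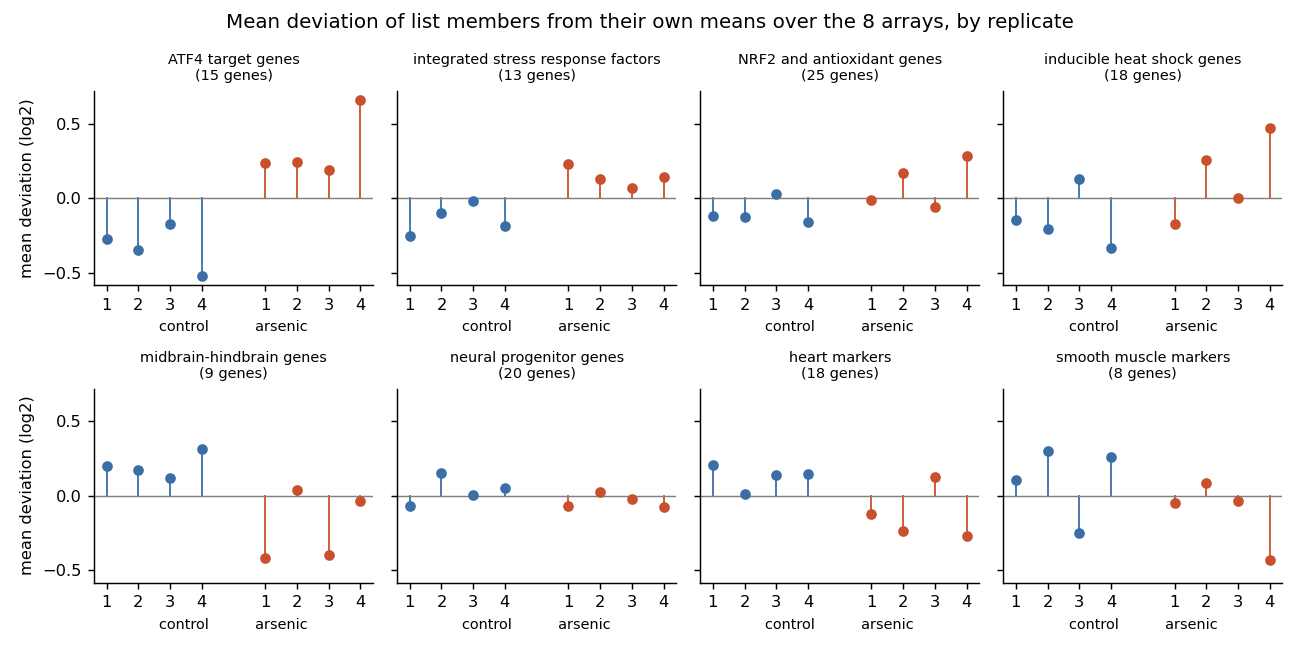
Mean deviation of a list's tested members from their own means over the 8 arrays (y axis, log2), one point per array, controls in blue and arsenic in red, numbered by replicate. The ATF4 targets lie below zero on all 4 control arrays (-0.52 to -0.18) and above it on all 4 arsenic arrays (0.19 to 0.66); the heart markers are above zero on arsenic array 3 and below it on the other arsenic arrays.

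The later stages give values of the leading genes at other times. They come from other embryos with their own controls, at 12 h (GD9:00, 3 arsenic and 4 control arrays) and 24 h (GD9:12, 4 and 3) after the second injection; all later arrays but 1 share a title number series with control array 3 of GD8:15, and no arsenic array of GD8:15 is in it, so that for the arsenic arrays stage and series cannot be told apart. Of the 15 leading higher genes 10 were higher at 12 h and 2 at 24 h, and 4 kept more than 0.5 of the size at 12 h and none at 24 h. Chac1 was at 1.30 ± 0.22, 0.74 ± 0.24 and -0.07 ± 0.24 at 3, 12 and 24 h. Stc2 was at 0.98 ± 0.17, 0.25 ± 0.18 and -0.01 ± 0.18. Atf4 was at 1.27 ± 0.31, 0.25 ± 0.34 and -0.25 ± 0.34. These 3 and the rest of the 15 had been chosen by their p at 3 h. Their smaller later values and counts are therefore no test of a decline.

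Among the stress genes described above, some still stood higher than their controls at 12 h and others did not. Jdp2 was at 2.13 ± 0.54 and 1.82 ± 0.59, Hmox1 at 1.78 ± 0.35 and 1.24 ± 0.38, Atf3 at 0.77 ± 0.35 and 0.99 ± 0.38, Hspa1b at 1.19 ± 0.43 and 1.69 ± 0.46, and Ddit3 at 0.48 ± 0.27 and 0.85 ± 0.29. At 24 h these 5 lay between -0.01 and 0.19. Gclm and Gsto1 were at -0.01 and -0.23 at 12 h and Chordc1 at -0.18, and the heat shock list had a median of -0.21 there with 6 of 18 positive. The median of the ATF4 targets was 0.42, 0.40 and 0.03 at the 3 stages, with 15, 13 and 10 of 15 positive. That of the stress response factors was 0.12, 0.20 and 0.02.

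The test of the difference between stages called no probe. For the arsenic difference at 3 h minus that at 12 h, the lowest limma adjusted p was 0.393, with 639 probes at an unadjusted p under 0.05 (8.16%). For 3 h minus 24 h it was 0.784, with 325 (4.15%). Against 24 h the difference of Chac1 was larger at 3 h by 1.37 ± 0.33, that of Stc2 by 1.00 ± 0.25 and that of Slc1a4 by 1.15 ± 0.30. Each had a limma adjusted p of 0.784, and all 3 were among the genes chosen by their p at 3 h. Muscle genes had the opposite sign at the first 2 stages: Cnn1 was at -1.17 ± 0.32 and 1.09 ± 0.34, Actc1 at -1.57 ± 0.53 and 1.03 ± 0.57, and Myl7 at -1.82 ± 0.52 and 0.53 ± 0.56. The stage contrast of Cnn1 was -2.25 ± 0.47 (adjusted p = 0.393). En1 was negative at all 3 stages, at -1.58 ± 0.39, -0.56 ± 0.43 and -0.56 ± 0.43, and so was Mab21l2, at -1.02 ± 0.29, -0.72 ± 0.31 and -0.60 ± 0.31. Named genes of lowest p in the stage contrasts were Dtnbp1, Mpdz and Arnt for 12 h, at 0.99 ± 0.22, 0.46 ± 0.11 and -1.09 ± 0.26, whose differences at 3 h were 0.17, 0.18 and -0.25. Xist was higher under arsenic by 2.53 at 12 h and lower by 1.34 at 24 h on the log2 scale, so its difference changed sign between the stages.

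**Figure D5:**
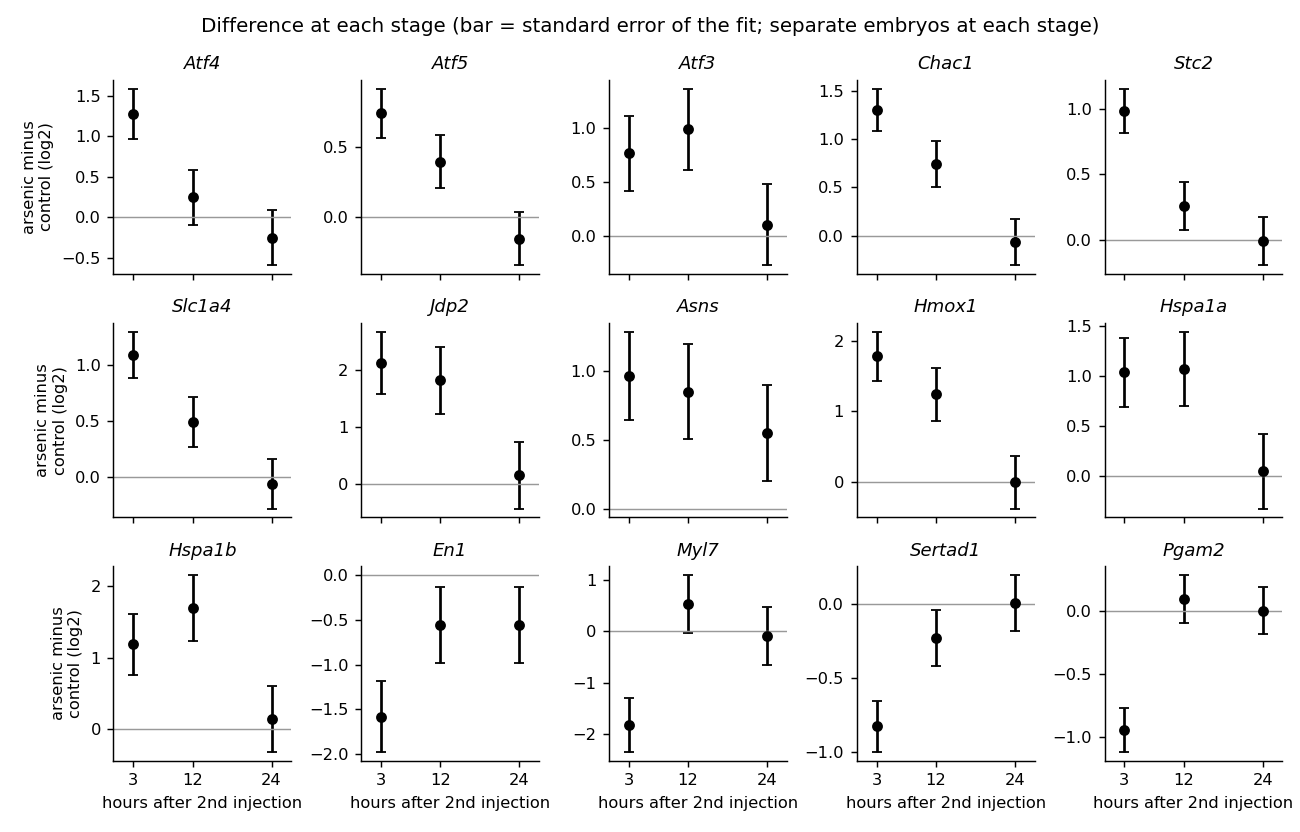
Difference between arsenic and control (y axis, log2) at 3, 12 and 24 h after the second injection for 15 genes, each panel with its own y axis; points are the fitted differences and bars their standard errors. Chac1, Stc2, Slc1a4 and Atf4 are highest at 3 h and near zero at 24 h, Hspa1b and Atf3 are somewhat higher at 12 h than at 3 h, and Myl7 changes sign between 3 and 12 h.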

How the data were processed

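The authors deposited linear CodeLink intensities per probe, rounded to whole numbers and scaled to a mean near 600 on the 8 arrays; the values show this scaling, while background correction and scanner software are not given in the sources used here. Values of 1 or 2 (218 on these arrays) were taken as missing. The log2 intensities of all 22 arrays were quantile normalised. Of 10500 probes, 7830 were fitted (at least 2 measured arrays per group, mean above the lowest 25%) with limma 3.58.1 (lmFit, eBayes; 6 group means, R 4.3.3), with Benjamini-Hochberg adjustment over all of them. A gene of a list stands by its brightest tested probe; symbols come from the platform annotation (9378 probes with 1 symbol, 8 with several, 1114 with none). In 92 genes with 2 tested probes, 50 pairs had the same sign. As 50.1% of all probes were positive and none was called, this cannot show whether both probes report the same gene. A gene with a single probe has no second reading here. Named were the 15 genes of lowest p in each direction, the 4 of lowest p in each list, the 5 in each stage contrast, sex-linked genes, and other members of the stress, chaperone and muscle lists; exceptions are stated. The members and lists were chosen with earlier results of these data known. Promoters were searched in Python 3.11.15. Scripts were tested on simulated data. The number of arrays limits the precision. Alternatives covered normalisation, filters, spread, array weights, title series, low runs, and each array left out.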

Additional observations from a re-analysis of the deposited data

Results flagged for a closer look

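In a group of 4 arrays, 1 array was marked when its distance to the nearest other array divided by the group's range exceeded Dixon's critical value; 19 of 224 gene groups were marked, where chance marks about 1 in 20. Arsenic array 3 was the low array for Thbs4 (0.861), Fem1c (0.885) and Gclm (0.914). Arsenic array 1 was high for Dph7 (0.865) and Gata6 (0.881), arsenic array 2 for Mab21l2 (0.954), arsenic array 3 for Dlx1 (0.897), and arsenic array 4 for Gstm2 (0.882). Control array 3 was low for C5ar1 (0.898), Vldlr (0.954) and Sdf2l1 (0.96) and high for Mettl3 (0.931) and Asns (0.836). Control array 1 was high for Calr (0.839) and Bub1 (0.861) and low for Gapdh (0.896). Control array 4 was high for En1 (0.856) and Lmx1b (0.849) and low for Mthfd2 (0.862), where its value lay in a run of low signal.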

How the results depend on the processing

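No probe passed an adjusted p of 0.05 as reported. Settings that gave calls were placeholders kept (3: Chac1, Stc2 and an unnamed probe), a trended and robust spread (5: Chac1, Hmox1, Stc2, Slc1a4 and Pgam2), array weights (4: Hmox1, Ogg1, Sertad1 and the unnamed probe) and low runs masked or a local running median subtracted (4 each: Chac1, Stc2, Pgam2 and the unnamed probe). Leaving out 1 array gave 0 to 3 calls: Chac1 without arsenic array 2, and Hmox1, Stc2 and Ogg1 without arsenic array 3. Probes with separate groups numbered 169 under the scaling of the authors (106 higher, 63 lower), 463 with no filter, 188 with the filter at 50%, 794 within 1 title series, 402 to 756 with 1 array left out and 1352 without arsenic arrays 3 and 4, an alternative chosen after seeing the data, as were normexp, cyclic loess and the local median; fewer arrays separate more easily by construction. Xist was 1.38 within 1 title series and 1.87 without arsenic arrays 3 and 4, and Eif2s3y -0.47 and -0.52, each at the smallest exact permutation p possible there, 0.0667; Eif2s3y was -0.21 under the scaling of the authors (exact permutation p = 0.371). At an unadjusted p under 0.05 the higher and lower probes numbered 354 and 120 under that scaling, 139 and 260 with median centring, 251 and 149 with cyclic loess, 145 and 197 with the 8 arrays normalised and fitted alone, 156 and 196 with the 8 arrays fitted alone, and 169 and 210 with the 50% filter, so the share that is higher depends on these settings. With title series as a block, 314 passed, and within 1 series 318. Of 112 genes examined over up to 25 settings, 100 kept their sign throughout. Many of them were picked by their p in the main fit and the settings share arrays, so this count is no test. Under the scaling of the authors the median of all probes was 0.21, with 6306 of 7830 positive. There the sign turned for Eif2ak1 (0.080), As3mt (0.036), Lmx1b (0.077), Otx2 (0.11), Gsr (0.22), Nqo1 (0.24), Slc7a7 (0.13) and Txnrd1 (0.14). It turned for Gsr (0.013) and Nqo1 (0.011) with array weights, and for Gsr (0.016) and Txnrd1 (0.073) both with title series as a block and within 1 series. With the local median subtracted it turned for Slc1a5 (-0.032), Gsr (0.10), Nqo1 (0.067) and Slc7a11 (-0.033). Without arsenic arrays 3 and 4 it turned for Dtnbp1 (-0.051) and Nqo1 (0.053), and as a difference of group medians for Nqo1 (0.020). Leaving out 1 array gave -0.037 to 0.39 for Slc3a2, -0.039 to 0.039 for Nqo1, -0.021 to 0.064 for Slc7a11, -0.13 to 0.033 for Slc7a7 and -0.11 to 0.039 for Txnrd1. The median of the ATF4 targets ranged from 0.23 to 0.61. The cause of these shifts was not tested. A difference of group medians gives no p and no count. No paired analysis was possible because the labels give the arrays no replicate numbers. The number of arrays per group and the dim probes limit what could be called.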
